A study of Homo sapiens with 27 samples.

Results

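Cells given thin bipyramids of calcium oxalate were compared with cells given dumbbells of the same salt, in 8 of the 27 RNA libraries of the study. The libraries were chosen by their titles, TN A to D for the thin bipyramids and DB A to D for the dumbbells, with no use of measured values. Both crystals are calcium oxalate dihydrate (COD), so the comparison is between crystal shapes at the same mass concentration. Whether number, size or surface area of the crystals also matched was not tested. The other libraries are 7 controls and 4 for each of 3 further crystal forms. All libraries are of MCF10DCIS.com, which the labels call breast premalignant. This cell line descends from human MCF10A cells and grows as lesions like ductal carcinoma in situ. In every group the culture began with 500000 cells, and 6 h later the crystal groups received their crystals at 0.1 mg/mL, while the controls are labelled only as controls. How long the cells stayed with the crystals is not stated by the labels. Nor do the labels tell whether libraries A to D are separate cultures. The p-values therefore refer to a spread among libraries, part of which may be technical. That spread was estimated over all 27 libraries, the other groups included.

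Calcium oxalate is the main mineral of kidney stones and is also found in breast microcalcifications. Cells meet such crystals as surfaces to which they attach, and known responses of epithelial cells include inflammatory signalling, stress responses and changes in adhesion. Genes that cells switch on when the epidermal growth factor (EGF) receptor and its kinase ERK are active include the immediate early transcription factors, the AP-1 family among them, and matrix-degrading proteases. Genes of DNA replication are switched on as cells pass from G1 into S phase, largely through E2F factors.

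The 8 libraries held 13707214 to 38672521 counts. Serial numbers in the deposited names divide all libraries into sets of 10, 12 and 5, called here library sets 1, 2 and 3. Each shape has 2 libraries in set 1 (A and B), 1 in set 2 (C) and 1 in set 3 (D), so the shapes are balanced over the sets. The set is a term in the model. What the sets are is not stated in the labels. TN C carries the first serial number of set 2, and its fragments averaged 297.0 nt against 233.4 nt for DB C, so a fit with TN C in set 1 was run as well. TN B holds liver transcripts. ALB, the serum albumin gene, was at 659 CPM (counts scaled to library size) in TN B and at 0 to 6.45 CPM in the other 7 libraries. The summed level of 16 hepatocyte markers was 1430 CPM in TN B, with no marker at 0, against 53.3 to 192 CPM in the other 26 libraries. In the other 7 libraries of the 2 shapes most of that sum was SERPINA1, at 79.6 to 197 CPM. DB C, at 6.45 CPM of ALB, was the next highest of the 8. Leukocyte markers summed to 71.7 CPM in TN B, of which LYZ made up 58.1 CPM, against 8.03 to 28.3 CPM elsewhere. Fibroblast, endothelial and erythroid markers summed to at most 15.2, 15.1 and 0.407 CPM in any of the 8. The keratins KRT5, KRT17, KRT8 and KRT18 were all at 1170 TPM (levels per transcript length) or more in each of the 8 libraries, while KRT19 was at most 7.02 TPM.

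**Figure D1:**
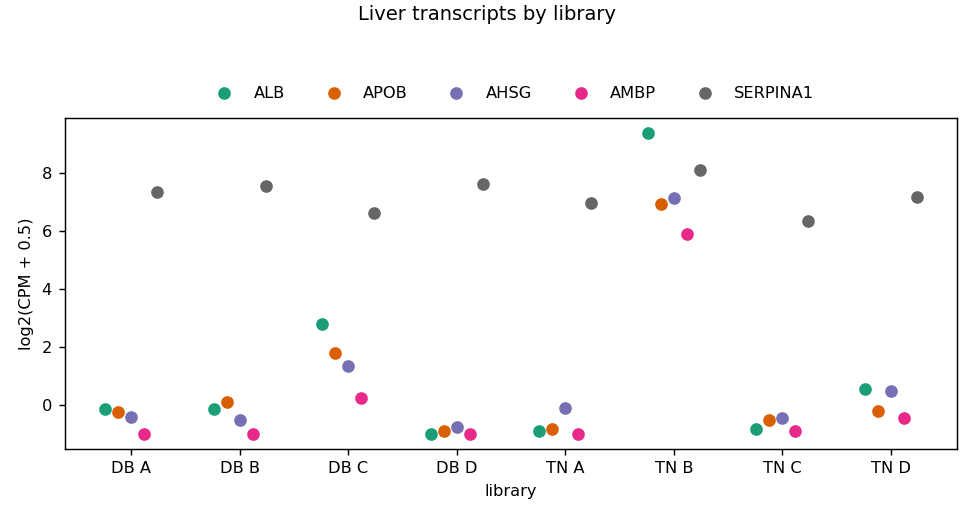
Each point is the level of a liver gene, as log2(CPM + 0.5), in one of the 8 libraries. TN B stands apart for ALB, APOB, AHSG and AMBP, DB C is raised slightly, and SERPINA1 is present in every library (79.6 to 272 CPM).

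With thin bipyramids, 12 of 21 matrix protease genes, 10 of 23 cell junction genes, 8 of 22 keratinocyte differentiation genes and 5 of 23 immediate early genes were lower than with dumbbells, and 20 of 22 DNA replication genes were higher. Of 22 inflammatory genes, most of them higher than in controls with each shape, 3 were higher and 2 lower with TN. The other 17 did not pass the test between the shapes, and nor did most of all genes tested. Of 16173 genes tested, 919 (5.68%) were higher and 752 (4.65%) lower with TN than with DB, 10.3% in all, at a Benjamini-Hochberg adjusted p under 0.05 in edgeR's quasi-likelihood test. The median log2 fold change over all genes tested was -0.00. Most differences were small. The median size was log2 0.36 among higher and 0.45 among lower genes, and 44 and 69 genes exceeded log2 1. The difference had the same sign in all 3 sets for 701 of the higher genes (76.3%) and 618 of the lower ones (82.2%).

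The counts depended on which libraries entered and on the set term, without which 543 genes (1.92% higher, 1.44% lower) were called. In 606 genes (3.75%) all TN libraries lay above all DB libraries, and in 444 (2.75%) below. The RNA is of bulk cells, so a change in the share of some cells and a change in RNA per cell cannot be told apart. Without TN B, 986 genes (3.13% higher, 2.88% lower) were called, among them 474 of the 919 higher and 398 of the 752 lower genes. Without TN C, 3207 (9.76% higher, 9.77% lower) were called, with 872 and 729 of those genes among them. The genes higher with TN had a median log2 difference from controls of 0.19 for TN and -0.18 for DB, and the genes lower with TN had -0.25 and 0.21. These medians are descriptions, since the genes were picked by the difference between the shapes. TN and DB share the 7 controls. In the same model 1107 genes (6.84%) were higher and 789 (4.88%) lower with TN than in controls, and 957 (5.92%) higher and 663 (4.10%) lower with DB.

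**Figure D2:**
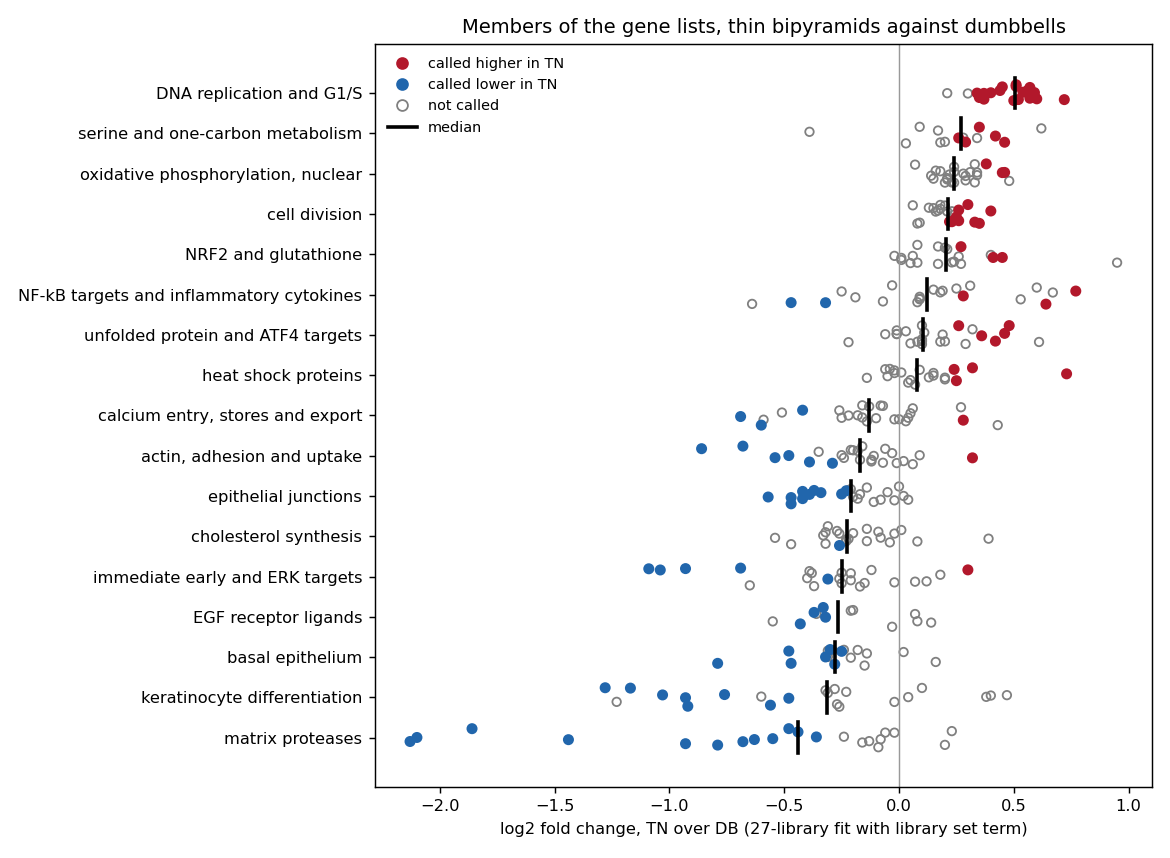
Points are the members of 17 gene lists, placed by their log2 fold change, TN over DB, in the fit over 27 libraries with a library set term. Filled points were called, open points were not, and the black bar is the list's median, which runs from -0.44 for matrix proteases to 0.51 for DNA replication genes.

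Matrix proteases and their partners were lower with thin bipyramids. Of 21 measured genes of this list 12 were called lower and none higher, with a median of log2 -0.44, where 4.65% of all genes were called lower. Without TN B 10 were lower, without TN C 13 and without the set term 6, beside 2.88%, 9.77% and 1.44% of all genes. Against controls 8 were called higher and none lower for DB, beside 5.92% and 4.10% of all genes. For TN 1 was called higher and 6 lower, beside 6.84% and 4.88% of all genes.

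Collagenases and stromelysins showed the widest gaps. MMP1, the interstitial collagenase (chromosome 11, 102789920 to 102798160, GRCh38), stood at 107, 102, 45 and 148 CPM in DB A to D and at 11.4, 21.5, 16.7 and 35.6 CPM in TN A to D. Every TN library was below every DB library. The log2 fold change was -2.10 (SE 0.31, edgeR adjusted p = 0.00024), and -2.66, -1.43 and -2.06 within sets 1, 2 and 3. MMP10, the neighbouring gene of stromelysin-2 (102770503 to 102780628), stood at 32.9, 32, 12.6 and 53 CPM with DB and at 4.45, 7.05, 4.25 and 12.6 CPM with TN. Only TN D reached the lowest DB library. The difference was log2 -2.13 (SE 0.30, edgeR adjusted p = 0.00013). Relative to controls both genes moved in opposite directions, MMP1 by 1.06 with DB and -1.04 with TN, and MMP10 by 1.04 and -1.09, all 4 called. The controls themselves ran widely, from 14.3 to 75.2 CPM for MMP1 and from 2.99 to 23.8 CPM for MMP10. MMP9, a gelatinase, differed by -1.86 (SE 0.47, edgeR adjusted p = 0.013) at levels of 0.39 to 1.23 CPM with TN and 1.08 to 7.09 CPM with DB, and was not called without TN B (adjusted p = 0.055). Neither was MMP28, the epilysin gene, which differed by -0.63 with all libraries (adjusted p = 0.11 without TN B).

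The plasminogen system moved the same way. PLAUR, the receptor that holds urokinase at the cell surface, was at 180, 147, 130 and 198 CPM with DB and at 91.2, 111, 85.5 and 118 CPM with TN, with no overlap. They differed by log2 -0.68 (SE 0.11, edgeR adjusted p = 0.00048), and -0.69, -0.60 and -0.74 within the sets. PLAU, urokinase itself, was at 237 to 386 CPM with DB and 193 to 235 CPM with TN (log2 -0.44, SE 0.10, edgeR adjusted p = 0.0061). PLAU was above controls with each shape, by 0.92 with DB and 0.48 with TN. SERPINB2, the gene of plasminogen activator inhibitor 2 (chromosome 18, 63871692 to 63903890), was at 104, 86.4, 13 and 102 CPM with DB and at 20.9, 30.1, 11.4 and 34.6 CPM with TN. DB C fell among the TN libraries, of which TN C, also of set 2, was the lowest. The log2 fold change was -1.44 (SE 0.22, edgeR adjusted p = 0.0003), but -0.20 within set 2 against -1.90 within set 1, and this difference between sets was itself called (adjusted p = 0.045). The metalloprotease inhibitor TIMP1 (-0.93) and the tissue activator PLAT (-0.55) were also called lower. Membrane-bound MMP14, a protease that activates other family members, had a log2 fold change of -0.08 (adjusted p = 0.48). In the fit without a set term MMP10 (adjusted p = 0.053), SERPINB2 (0.13) and PLAU (0.12) were not called.

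**Figure D3:**
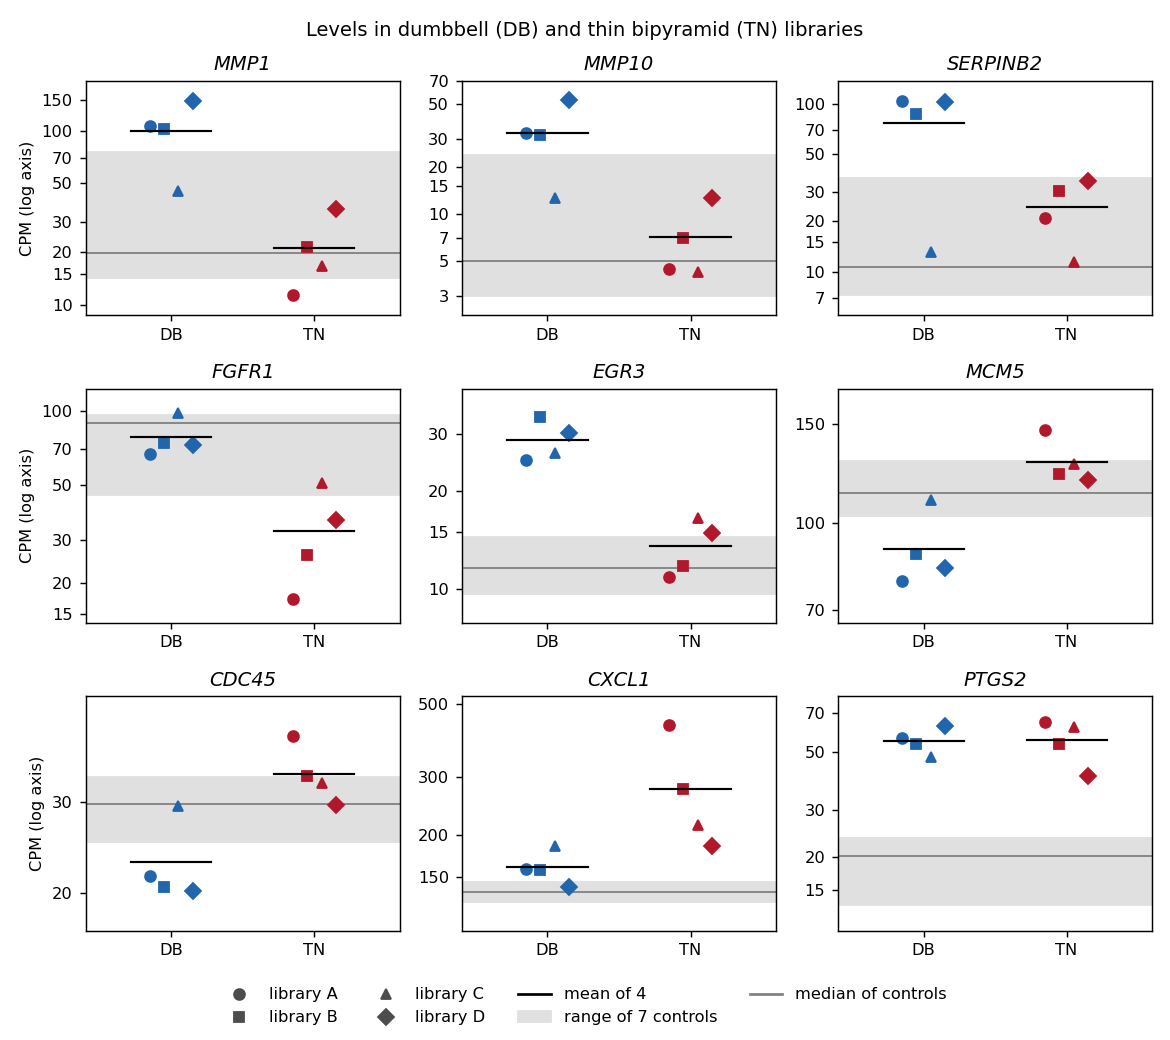
CPM on a log axis for 9 genes in DB and TN libraries, with symbols for libraries A to D, black bars for means of 4 and grey bands for the range of the 7 controls. MMP1 lies between 11.4 and 35.6 CPM in the TN libraries and between 45 and 148 CPM in the DB libraries, whereas PTGS2 overlaps between the shapes and lies above every control.

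The promoters of 3 genes of this list are shown because they hold TGANTCA, the AP-1 motif as searched here (N is any base). These were searched on either strand in the 250 bases before the start site given by RefSeq (GRCh38.p14), for the 6 of the 12 lower protease genes that have an entry in that table. The capitals mark the motif, and each run ends at the base before the start site. For SERPINB2 the RefSeq start site lies within the gene's span given above, downstream of its first base.

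MMP10 promoter, chr11:102780629-102780878, minus strand: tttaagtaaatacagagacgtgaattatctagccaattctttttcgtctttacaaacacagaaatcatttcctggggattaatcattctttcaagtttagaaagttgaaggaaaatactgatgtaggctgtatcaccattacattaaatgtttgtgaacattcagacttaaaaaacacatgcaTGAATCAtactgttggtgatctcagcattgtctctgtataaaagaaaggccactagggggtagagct

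SERPINB2 promoter, chr18:63887455-63887704, plus strand: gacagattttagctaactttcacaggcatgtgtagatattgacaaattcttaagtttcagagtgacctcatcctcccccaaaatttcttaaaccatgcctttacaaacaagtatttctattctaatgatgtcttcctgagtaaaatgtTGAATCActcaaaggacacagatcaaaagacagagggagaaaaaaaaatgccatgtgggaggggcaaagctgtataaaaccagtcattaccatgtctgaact

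PLAUR promoter, chr19:43670170-43670419, minus strand: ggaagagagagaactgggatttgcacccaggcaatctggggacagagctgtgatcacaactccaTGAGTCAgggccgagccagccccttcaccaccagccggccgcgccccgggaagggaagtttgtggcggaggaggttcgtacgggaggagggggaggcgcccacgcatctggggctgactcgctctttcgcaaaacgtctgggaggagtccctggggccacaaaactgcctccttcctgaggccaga

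The motif lies at -67 to -61 in MMP10, at -102 to -96 in SERPINB2 and at -186 to -180 in PLAUR, counted from the start site. Its middle base is A in MMP10 and SERPINB2 and G in PLAUR. PLAU, ADAM17 and TIMP1 had no match in this window. The motif is held by 6.6% of all 27305 promoters given by RefSeq, 4.29% of the 11130 of genes tested, 6.67% of the 585 of genes lower with TN and 3.5% of the 714 of genes higher with TN. These shares are descriptions of letters in a window and say nothing of binding.

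Immediate early and ERK target genes were lower in part. Of 23 measured members 5 were called lower and 1 higher, beside 4.65% and 5.68% of all genes, with a median of -0.25. Without TN B 2 were lower, without TN C 12 and without the set term 2, beside 2.88%, 9.77% and 1.44% of all genes. EGR3, a zinc-finger transcription factor induced by growth factors, was at 24.9, 33.8, 26.3 and 30.2 CPM with DB and at 10.9, 11.8, 16.5 and 14.9 CPM with TN. The groups did not overlap, and the controls (9.64 to 14.5 CPM) lay around the TN libraries. Its log2 fold change was -1.09 (SE 0.15, edgeR adjusted p = 8.9e-05), with 1.25 for DB and 0.16 for TN against controls. FOS, an AP-1 subunit, was at 116, 99.2, 62.8 and 150 CPM with DB and at 80.1, 65.3, 27.8 and 55 CPM with TN. It differed by -0.93 (SE 0.19, edgeR adjusted p = 0.0037), or adjusted p = 0.15 without the set term, and lay below controls with TN (-1.25) while DB did not pass the test (-0.32, adjusted p = 0.26). EGR1 (-0.69), EGR2 (-1.04) and DUSP6, a phosphatase that switches ERK off (-0.31), were called lower. These 3 were not called without TN B, at adjusted p = 0.056, 0.054 and 0.14. MYC, the growth-promoting transcription factor, was the member called higher (0.30, adjusted p = 0.028). FOSL1, JUN and JUNB, further AP-1 subunits, were not called, at 0.18, -0.37 and -0.38.

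FGFR1, a receptor of fibroblast growth factors, was at 66.9, 73.7, 97.8 and 72.8 CPM with DB and at 17.3, 26.1, 50.9 and 36.1 CPM with TN. All TN libraries lay below all DB libraries. The log2 fold change was -1.33 (SE 0.14, edgeR adjusted p = 1.9e-06), and against controls it was -1.02 for TN (adjusted p = 1.1e-05) and 0.32 for DB (adjusted p = 0.09). Of 12 genes of EGF receptors, ligands and their inhibitor 4 were called lower, beside 4.65% of all genes, and none higher. These were the receptors ERBB3 (-0.43) and ERBB2 (-0.33), the ligand EREG (-0.37) and ERRFI1, an inhibitor of the EGF receptor (-0.32). EGFR itself had a log2 fold change of -0.21 (adjusted p = 0.25). ADAM17, the protease that releases ligands of this receptor, was called lower by -0.36 (adjusted p = 0.0087).

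Keratinocyte differentiation genes were lower with thin bipyramids in 8 of 22 measured cases and higher in none, with a median of -0.31. Over all genes 4.65% were called lower, 2.88% without TN B and 1.44% without the set term. Without TN B 8 members were called lower as well, with SPRR1A in place of SPRR1B (adjusted p = 0.028 and 0.072). SPRR2A and SPRR2D, cornified envelope genes so alike that reads cannot be assigned surely between them, differed by -1.28 (SE 0.22, adjusted p = 0.0008) and -1.17 (SE 0.19, adjusted p = 0.00041) in edgeR's test. SPRR2A was at 58.2, 43.1, 13.5 and 62.6 CPM with DB and at 14.2, 23.2, 8.56 and 23.5 CPM with TN. DB C was again the low library of its group and lay within the TN range. KRT6A, a keratin of stressed and wounded epidermis, was at 49.2 to 162 CPM with DB and 31.1 to 73.9 CPM with TN (log2 -1.03, SE 0.16, edgeR adjusted p = 0.0003). The transcription factors OVOL1 and ZNF750, which drive terminal differentiation, differed by -0.76 (adjusted p = 0.0022) and -0.92 (adjusted p = 0.0012). OVOL1 did not overlap between the shapes, while ZNF750 stood at 9.93 CPM in DB C and 10.8 CPM in TN C. SPRR1B, a further cornified envelope gene (-0.93), and the protease KLK5 (-0.48) were called lower, while IVL (involucrin, -0.02) and KRT10 (0.10) were not called. Against controls 12 members were called higher for DB and 3 for TN, beside 5.92% and 6.84% of all genes. Without the set term 3 members were called lower between the shapes, and SPRR2A (adjusted p = 0.13) and SPRR2D (0.084) were not.

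Epithelial junction genes were lower in 10 of 23 measured cases and higher in none, with a median of -0.21. Without TN B 5 were lower, without TN C 13 and without the set term 5. Over all genes 4.65% were called lower, and 2.88%, 9.77% and 1.44% in these other fits. CDH1, the gene of E-cadherin, was at 319, 296, 271 and 324 CPM with DB and at 209, 196, 230 and 238 CPM with TN. The groups did not overlap and the controls, at 222 to 250 CPM, lay beside TN. The log2 fold change was -0.47 (SE 0.08, edgeR adjusted p = 0.00044). DSG3, a desmosomal cadherin, was at 315, 284, 245 and 309 CPM with DB and at 201, 161, 231 and 183 CPM with TN (log2 -0.57, SE 0.10, edgeR adjusted p = 0.00088), but the gap in set 2 was -0.08. The desmosomal genes DSC3 (-0.47), DSC2 (-0.42) and DSP (-0.42), the placental cadherin CDH3 (-0.34) and the tight junction genes CLDN4 (-0.39) and OCLN (-0.37) were called lower too. DSP, CLDN4, OCLN and F11R were not called without TN B, at adjusted p = 0.064, 0.053, 0.066 and 0.054. CLDN1, another tight junction gene, was at 306 to 355 CPM with DB and 259 to 407 CPM with TN, above the control range of 218 to 250 CPM with each shape (log2 0.04 between shapes, adjusted p = 0.83).

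Basement membrane and adhesion genes had values in the same direction. The laminin chains LAMA3 (-0.47) and LAMB3 (-0.48), of the anchor of basal epithelial cells, were called with all libraries, and without TN B at adjusted p = 0.085 and 0.054 they were not. Of 17 basal epithelial genes 7 were called lower with all libraries and 1 without TN B or without the set term. Over all genes 4.65% were called lower, 2.88% without TN B and 1.44% without the set term. The list's median with all libraries and without TN B was -0.28 and -0.19. ITGB3, the beta-3 integrin chain, was at 127, 148, 146 and 138 CPM with DB and at 51.9, 58.8, 102 and 103 CPM with TN, with no overlap (log2 -0.86, SE 0.14, edgeR adjusted p = 0.00039). Of 25 genes of actin, adhesion and uptake 6 were called lower, ITGA2, FLNA and the endocytic receptor LRP1 among them, and 1 higher, CAV1, beside 4.65% and 5.68% of all genes. Without TN B 3 were lower, beside 2.88% of all genes, and without the set term 1, with LRP1 not called (adjusted p = 0.21). KRT5, the basal keratin, and VIM, the intermediate filament of mesenchymal cells, had log2 fold changes of 0.16 (adjusted p = 0.13) and -0.18 (adjusted p = 0.31).

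DNA replication and G1/S genes were higher with thin bipyramids. Of 22 measured members 20 were called higher and none lower, with a median of log2 0.51, where 5.68% of all genes were called higher. Without TN B 18 were called, without TN C 21, and without the set term 14, beside 3.13%, 9.76% and 1.92% of all genes. The 2 that were not called were CDT1, which licenses replication origins (0.21), and GINS1, part of the replicative helicase (0.30). Against controls 12 members were called lower for DB and none for TN, beside 4.10% and 4.88% of all genes. Called higher were 5 for TN and none for DB, beside 6.84% and 5.92% of all genes.

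Helicase genes illustrate the pattern. MCM5, a subunit of the MCM2-7 helicase (chromosome 22, 35400063 to 35425430), was at 78.8, 88.2, 110 and 83.1 CPM with DB and at 146, 122, 127 and 119 CPM with TN. The lowest TN library was above the highest DB library, DB C. The log2 fold change was 0.52 (SE 0.08, edgeR adjusted p = 0.00024). CDC45, which activates that helicase, was at 21.6, 20.6, 29.4 and 20.2 CPM with DB and at 40.2, 33.6, 32.6 and 29.6 CPM with TN, with TN D only just above DB C (log2 0.59, SE 0.09, edgeR adjusted p = 0.00029). The other MCM subunits, MCM2, MCM3, MCM4, MCM6 and MCM7, differed by 0.37 to 0.51. Among enzymes and clamps of DNA synthesis, PCNA, the sliding clamp, differed by 0.60, RRM2, a subunit of ribonucleotide reductase, by 0.57, and FEN1, a flap nuclease, by 0.56. The G1/S cyclins CCNE1 and CCNE2 differed by 0.58 and 0.72, and the transcription factor E2F1 by 0.37. CCNE1, CCNE2 and RRM2 were above controls with TN (0.62, 0.81 and 0.42), whereas MCM5 was below controls with DB (-0.34) and did not pass with TN (0.19, adjusted p = 0.082). CLSPN, an adaptor of the replication checkpoint, was higher as well (log2 0.79, SE 0.14, edgeR adjusted p = 0.00076).

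The gap was smallest in set 2. The list's median was 0.58, 0.10 and 0.58 within sets 1, 2 and 3. Against the mean of the 8 libraries, the median of the list was 0.45, 0.20, 0.18 and 0.10 in TN A to D and -0.26, -0.19, 0.03 and -0.51 in DB A to D, on the log2(CPM + 0.5) scale. TN A was thus the highest library and DB D the lowest, with DB C closest to the TN libraries.

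**Figure D4:**
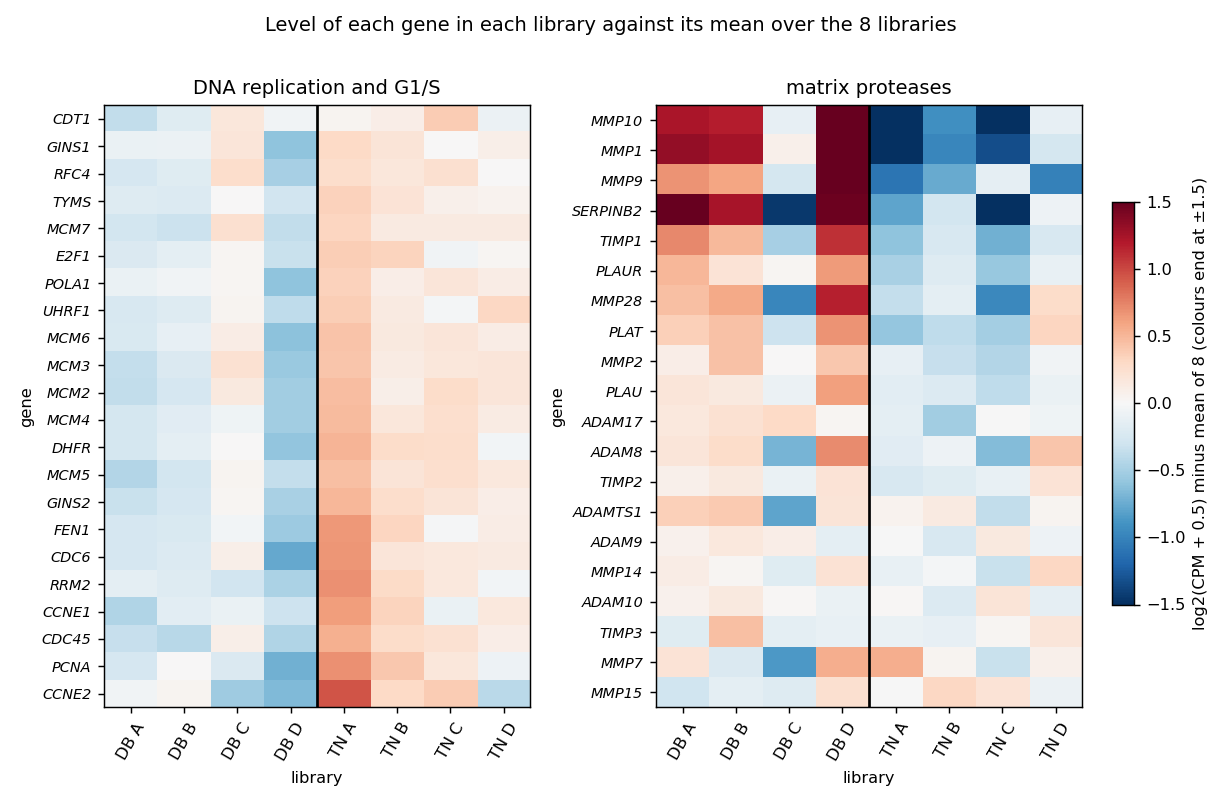
Colour gives each gene's log2(CPM + 0.5) in a library less its mean over the 8 libraries, for 22 DNA replication and 20 of the 21 matrix protease genes ordered by their log2 fold change, TN over DB. DB A, B and D are low for replication genes and high for proteases, and DB C is nearer the TN libraries in each panel.

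One replication promoter is shown, since MCM6 holds the E2F motif TTTNGCGC most often. In its 250 bases before the RefSeq start site (GRCh38.p14) there were 4 matches over both strands, as 2 overlapping pairs, marked by capitals.

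MCM6 promoter, chr2:135876444-135876693, minus strand: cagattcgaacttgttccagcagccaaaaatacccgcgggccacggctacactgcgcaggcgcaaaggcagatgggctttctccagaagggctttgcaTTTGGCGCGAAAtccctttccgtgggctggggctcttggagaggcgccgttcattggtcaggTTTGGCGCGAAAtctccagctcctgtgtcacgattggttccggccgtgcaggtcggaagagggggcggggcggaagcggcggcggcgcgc

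The pairs lie at -152 to -141 and at -90 to -79. Of the 20 higher replication genes 16 have an entry and 4 of these hold the motif (MCM6, MCM7, E2F1 and POLA1). It is in 1.54% of all 27305 promoters, 2.44% of genes tested, 4.06% of genes higher with TN and 1.03% of genes lower with TN. As above, a match is a description of the sequence.

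Mitotic genes showed smaller differences. Of 22 cell division genes 9 were called higher with TN and none lower, with a median of 0.22. Without the set term 3 were higher. Over all genes 5.68% were called higher, and 1.92% without the set term. BIRC5, the survivin gene of the chromosomal passenger complex, was at 108 to 136 CPM with DB and at 134 to 178 CPM with TN (log2 0.40, SE 0.09, edgeR adjusted p = 0.0045). TPX2, a spindle assembly factor, differed by 0.30 and AURKB, a mitotic kinase, by 0.35. MKI67, which encodes Ki-67 of dividing cells, was at 264 to 323 CPM with DB and at 216 to 343 CPM with TN (log2 0.06, adjusted p = 0.82).

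Inflammatory genes rose with each shape against controls, with none called lower. Of 22 members 16 were called higher for TN and 15 for DB, beside 6.84% and 5.92% of all genes. Between the shapes 3 were called higher with TN and 2 lower, beside 5.68% and 4.65% of all genes. CXCL1, a neutrophil chemokine (chromosome 4, 73869393 to 73871242), was at 158, 157, 186 and 140 CPM with DB and at 432, 276, 215 and 186 CPM with TN. TN A was the highest and TN D was level with DB C. The log2 fold change was 0.77 (SE 0.13, edgeR adjusted p = 0.00079), with 1.02 for TN and 0.25 for DB against controls. CCL20, which attracts lymphocytes and dendritic cells, was at 9.1 to 11.4 CPM with DB and 11.5 to 20.6 CPM with TN (log2 0.64, edgeR adjusted p = 0.013, or 0.081 without the set term). LIF, the leukemia inhibitory factor, went the other way, at 644 to 836 CPM with DB and 515 to 652 CPM with TN (log2 -0.32, edgeR adjusted p = 0.014, or 0.12 without the set term). PTGS2, the gene of cyclooxygenase-2, was at 56.6, 53.4, 47.8 and 62.6 CPM with DB and at 65.2, 53.6, 62.2 and 40.5 CPM with TN, above all controls (13.1 to 23.6 CPM) with each shape. Its log2 fold change between the shapes was -0.03 (SE 0.15, adjusted p = 0.93), and IL1B and CXCL8 were at -0.19 (adjusted p = 0.45) and 0.25 (adjusted p = 0.19).

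Stress genes were called in part between the shapes. Of all genes 5.68% were called higher, 3.13% without TN B and 1.92% without the set term. HSPA1A, an inducible HSP70 with a near-identical copy in HSPA1B, was at 31.2 to 44.8 CPM with DB and 31.9 to 52.8 CPM with TN, below the control range of 67.6 to 126 CPM. Between the shapes it differed by log2 -0.04 (adjusted p = 0.88). Of 20 heat shock genes 4 were called higher with TN, led by HSPE1, a mitochondrial chaperonin (0.73), and without TN B 1 was. HSPE1 itself was not called without TN B (0.58, adjusted p = 0.05) or without TN A (0.65, adjusted p = 0.053). CHAC1, a glutathione-degrading enzyme of the ATF4 response, was above controls by 2.18 with TN and 1.87 with DB and did not pass between them (0.32, SE 0.30, adjusted p = 0.56). Of 24 unfolded protein and ATF4 targets 5 were called higher, among them SLC7A5, a transporter of large amino acids, at 647 to 762 CPM with DB and 861 to 1050 CPM with TN (log2 0.48, SE 0.11, edgeR adjusted p = 0.0061). Without the set term none of the 24 was called. SLC7A5 was then at adjusted p = 0.17 and PSPH at 0.23, and without TN A they were at 0.066 and 0.055. PSPH, PSAT1, MTHFD2, MTHFD1 and TYMS, the 5 of 14 serine and one-carbon genes called higher, differed by 0.46, 0.42, 0.26, 0.29 and 0.35. Of 20 NRF2 and glutathione genes 3 were called higher, 2 without TN B and none without the set term. HMOX1, a marker of oxidative stress, was at 2.63 to 4.24 CPM with DB and 2.72 to 5.06 CPM with TN (0.17, adjusted p = 0.65).

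Differences in energy genes varied with the library set. Nuclear genes of oxidative phosphorylation were called higher with TN in 3 of 25 cases, and in 15 cases without TN C. Over all genes 5.68% and 9.76% were called higher in these fits. The list's medians were 0.46, -0.38 and 0.41 within sets 1, 2 and 3. UQCR10, a complex III subunit, was at 36.8 to 43.8 CPM with DB and 46.2 to 64.1 CPM with TN (log2 0.46, edgeR adjusted p = 0.0048). Mean fragment length was 273.9, 319.1, 233.4 and 247.7 nt in DB A to D and 293.5, 257.8, 297.0 and 215.4 nt in TN A to D. With fragment length as a covariate the list's median was again 0.24. None of 25 cytosolic ribosomal protein genes and none of 13 mitochondrially encoded genes was called. Cholesterol synthesis genes, with a median of -0.23, gave 1 called lower of 22 with all libraries, 14 without TN C and none without TN B. Over all genes 4.65%, 9.77% and 2.88% were called lower in these fits.

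**Figure D5:**
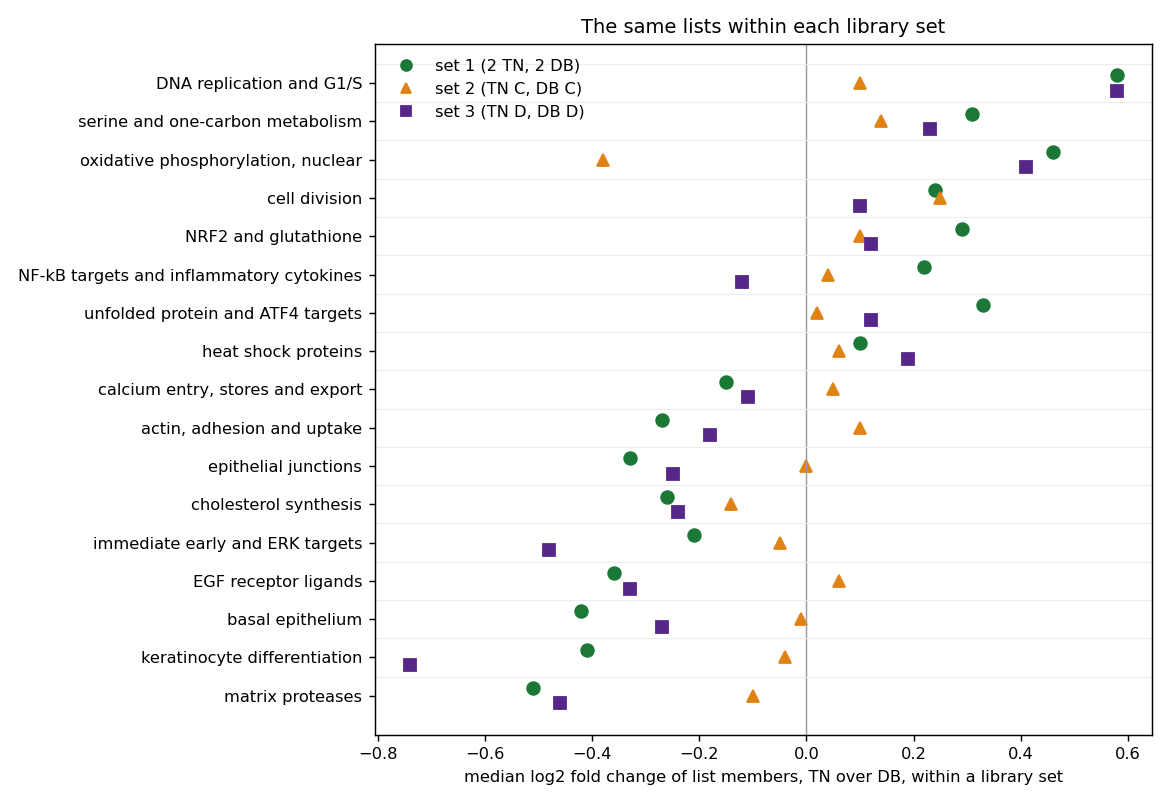
Each symbol is the median log2 fold change, TN over DB, of a list's members within library set 1, 2 or 3, where sets 2 and 3 hold 1 library a side. DNA replication medians are 0.58, 0.10 and 0.58 and oxidative phosphorylation medians 0.46, -0.38 and 0.41.

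Some genes of calcium, oxalate and mineral handling were called between the shapes. Of 25 genes of calcium entry, stores and export 3 were called lower and 1 higher, beside 4.65% and 5.68% of all genes. Without TN B 2 were lower and none higher, beside 2.88% and 3.13% of all genes. ATP2B4, a plasma membrane calcium pump, was at 223, 201, 137 and 234 CPM with DB and at 109, 97.6, 125 and 155 CPM with TN (log2 -0.69, SE 0.13, edgeR adjusted p = 0.0015). ITPR2, a calcium release channel, differed by -0.60 and TRPV4, an entry channel, by -0.42, while the calcium-binding chaperone CALR differed by 0.28. Of 15 mineralization regulators 4 were called lower, beside 4.65% of all genes. Without TN B 3 were lower and without the set term 1, beside 2.88% and 1.44% of all genes. Among the 4 were BMP2, a bone morphogenetic ligand (-0.86), and ANKH, a transporter that supplies pyrophosphate (-0.39). SPP1, the gene of osteopontin, was called higher on 1 library. It was at 18.2 CPM in TN B, the library with liver transcripts, and at 0.228 to 1.06 CPM in the other 7, and without TN B it differed by 0.21 (adjusted p = 0.87). Of 7 measured genes of oxalate transport and glyoxylate metabolism LDHA (0.27) and the anion exchanger SLC4A2 (0.31) were called higher. Each call was lost under several settings. Without TN A, SLC4A2 was at 0.16 (adjusted p = 0.29) and LDHA at 0.18 (0.23), and neither was called without the set term (0.25 and 0.11), without DB B (0.089 and 0.051) or without DB D (0.065 and 0.12). SLC4A2 was also not called without TN B (0.052) or DB C (0.083), and LDHA not without DB A (0.064).

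Further genes with wide differences lay outside these lists. TRPV3, a calcium-permeable channel of keratinocytes, was at 14.7, 11.7, 20.8 and 19.5 CPM with DB and at 4.04, 5.66, 4.82 and 8.24 CPM with TN, with no overlap. Its log2 fold change was -1.59 (SE 0.20, edgeR adjusted p = 3.9e-05), and -1.44, -2.11 and -1.25 within the sets. CAMK2B, a calcium and calmodulin-dependent kinase subunit, was at 35.1, 42, 50.6 and 40.5 CPM with DB and at 8.46, 14.1, 22.4 and 16.9 CPM with TN, likewise with no overlap. It differed by -1.49 (SE 0.18, edgeR adjusted p = 3.3e-05). TMCC3 (-1.23), the coronin CORO2B (-1.28) and the kinase scaffold AKAP12 (-1.21) were also among the 10 largest falls of genes with at least 5 CPM and the same sign in each set. AKAP12 was not called without the set term (edgeR adjusted p = 0.11). CORO2B was at 3.42 CPM in DB C against 11.7 to 18.6 CPM in the other DB libraries. In TN C it was at 3 CPM against 4.2 to 5.89 CPM in the other TN libraries.

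Among the 10 largest rises by the same limits, IFI30, a lysosomal thiol reductase, was at 9.21 to 13.1 CPM with DB and 16.3 to 19.5 CPM with TN (0.75, adjusted p = 8.5e-05). ABCC2, an export pump for organic anions, differed by 0.83, TPRG1 by 0.80 and ANKRD2 by 0.75. BCYRN1, a small non-coding RNA for which the genome holds similar copies, differed by 1.57 (SE 0.27, edgeR adjusted p = 0.00079), and by 1.46 with fragment length as a covariate. It was lowest in DB B, at 7.14 CPM, the library with the longest fragments. TMSB4XP4 is a pseudogene of TMSB4X, and AC011603.3 overlaps TUBA1B on the opposite strand. Reads of these 2 (0.94 and 0.75) cannot be told apart from those of their partners. TMSB4XP4 was not called without TN B (edgeR adjusted p = 0.073) or TN A (0.095), and AC011603.3 not without TN A (0.14). In the fit without the set term ABCC2 (edgeR adjusted p = 0.25), TPRG1 (0.06), TMSB4XP4 (0.097) and AC011603.3 (0.058) were not called.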

How the data were processed

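Poly(A) RNA of 27 libraries was sequenced. Per the submitters' processing notes, Trim Galore, RSEM, Bowtie2 and GRCh38 were used, with no versions. Strand setting and annotation are not stated. The authors deposited RSEM gene tables of expected counts and TPM, named by Ensembl gene, of which 15988 of 16173 tested genes (98.9%) matched GENCODE 29. TPM served only for marker levels. Expected counts were rounded and tested in edgeR 4.0.16 (R 4.3.3) by quasi-likelihood over all 27 libraries, with group and library set as terms, filterByExpr and TMM scaling. SE is the fold change over the root of F. CPM are TMM-scaled, except marker sums. Library totals were 13115669 to 38672521. Adjusted p-values are Benjamini-Hochberg over all genes tested. DESeq2 1.42.0, RLE scaling, other filters, set assignments, a fragment length covariate, the replicate block and leaving out libraries were alternatives. The script was tested on simulated data.

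Genes named are the 10 largest called changes a side with at least 5 CPM and the same sign in each set, the 2 called members with the smallest p per list, and a set of genes of interest. Further list members are given as list examples, chosen after their values were seen. Members and lists were chosen with earlier results of these data known. Same-lettered libraries did not deviate together for every letter, though TN D and DB D did in part (correlation 0.24). Letters were therefore not taken as pairs. A few genes are not reported here.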

Additional observations from a re-analysis of the deposited data

Results flagged for a closer look

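In groups of 4 to 7 libraries, 17 of 255 sets of values had a library apart from the rest by Dixon's criterion at the 95% level, where chance gives about 1 in 20. Of these, 6 were in DB C. It was highest of the DB libraries for ABCC2 at 20.9 CPM (others 6.59 to 8.76), GSR at 89.7 CPM (69.4 to 72.8), BIRC5 at 136 CPM (108 to 112), CDC45 at 29.4 CPM (20.2 to 21.6) and KRT5 at 2970 CPM (1990 to 2080), and lowest for HSPA1A at 31.2 CPM (43.7 to 44.8). TN C, also of set 2, was the highest TN library for ABCC2 (33.5 CPM), GSR (98.6 CPM) and KRT5 (2990 CPM). It was the lowest for HSPA1A (31.9 CPM), but not the highest for BIRC5 or CDC45.

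TN B stood apart for SPP1 at 18.2 CPM (others 0.228 to 1.06) and for the hepatocyte marker sum at 1430 CPM (81 to 145 in the other TN libraries). In the remaining crystal libraries, COL6A1, a collagen chain, was at 5.66 CPM in TN D (3.43 to 3.7), FJX1 at 50.6 CPM in TN A (45.5 to 46.2) and IFIT2, an interferon-induced gene, at 3.03 CPM in DB D (4.34 to 4.54). Among controls, AC011603.3 was at 238 CPM in control D (107 to 146), ADM at 17.1 CPM in control D (7.56 to 9.3) and LDHA at 1160 CPM in control D (1210 to 1250). FN1, fibronectin, was at 160 CPM in control B (134 to 146), IFIT3 at 4.57 CPM in control C (5.44 to 5.89) and VIM at 1170 CPM in control A (836 to 963).

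The difference between the shapes was itself different in library set 2 and set 1 for 148 genes (edgeR, Benjamini-Hochberg adjusted over all genes). Set 2 holds 1 library of each shape. Among genes named, the log2 difference, TN minus DB, was larger by 1.71 in set 2 for SERPINB2 (adjusted p = 0.045) and by 0.79 for ITGB3 (0.045), each nearer to 0 there. For HSPE1 the value in set 2 less that in set 1 was -1.09 (adjusted p = 0.028). Whether TN C or DB C carries these differences was not tested.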

How the results depend on the processing

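No called fold change among the genes chosen by the naming rule changed sign under these settings, while those of PTGS2, CLDN1, HSPA1A and MKI67, close to 0 and not called, did under some. The count of genes called between the shapes, 1671 (919 higher, 752 lower), was 543 (310 and 233) without the library set term, 207 (65 and 142) with only the 8 libraries of the 2 shapes and 2802 (1514 and 1288) with TN C placed in set 1. With letters as a replicate block it was 70 (10 and 60), though same-lettered libraries correlated at 0.05, -0.1, 0.05 and 0.24 across genes and not every library correlated best with its own letter. Leaving out 1 library gave 510 to 3207 called, 224 to 1602 higher and 286 to 1605 lower. The counts were 510 without TN A, 986 without TN B, 3207 without TN C, 1541 without TN D, 977 without DB A, 1113 without DB B, 1641 without DB C and 1050 without DB D. RLE scaling gave 1629, DESeq2 2142, no filter 2033, a stricter filter 1851 and a fragment length covariate 2091. Leaving out TN B and TN C together, chosen after seeing the data, gave 1950. The cause of these changes was not tested. The fit over all libraries had 19 residual degrees of freedom and the fit over 8 had 4. The former takes its spread from the other groups as well. Whether those groups vary as much as TN and DB was not tested. Calls lost among those genes numbered 50 under the replicate block, 22 without TN A, 2 to 15 without another single library (none without TN C), 35 without the set term, CCL20, LIF and FOS among them, and 34 with 8 libraries, CXCL1 (adjusted p = 0.073) and DSG3 (0.054) among them.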

Other observations

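Genes outside the lists were picked here after their values were seen, so no count rests on them. CCL2, a monocyte chemokine, was at 1.69, 1.78, 1.83 and 1.21 CPM with DB and at 8.4, 6.11, 4.94 and 4.34 CPM with TN, with no overlap. The difference was log2 1.87 (SE 0.19, edgeR adjusted p = 1.9e-06), with 1.40 for TN and -0.47 for DB against controls. The acute-phase genes PTX3 and SAA2 differed by 1.36 and 0.97. SMAD6, an inhibitor of bone morphogenetic protein signalling, differed by 1.21 (edgeR adjusted p = 0.00023) with -0.30 for TN and -1.51 for DB against controls.

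HAS2, a hyaluronan synthase, was at 3.76, 5.69, 2.11 and 4.55 CPM with DB and at 0.974, 1.93, 1.77 and 1.84 CPM with TN, with no overlap (log2 -1.34, edgeR adjusted p = 0.0017). CEMIP, which degrades hyaluronan, differed by -1.16 (edgeR adjusted p = 2.3e-05). The cytokine IL11 (-1.45), the interleukin-1 antagonist IL1RN (-0.84) and the semaphorin SEMA7A (-0.95) were lower as well. Further replication genes had positive values, with MCM10 at 0.67, POLE2 at 0.65, POLA2 at 0.62 and PRIM1 at 0.59.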
